A study of Mus musculus with 9 samples.

Results

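The endoplasmic reticulum genes described here are 40 mouse genes for chaperones, disulfide and prolyl isomerases, stress sensors, degradation factors and translocon subunits of that organelle. They were taken by symbol from the table of 15768 genes, where all 40 were found. Of these, 38 reached 1 FPKM (fragments scaled by gene length and library size) in at least 3 of 9 libraries and were tested, and the other 2, Derl3 and Fkbp2, were not. RNA was sequenced from SCC2 and SCC1, which are subclones each grown from a single cell of LLC1 by limiting dilution, and from LLC1 itself, a Lewis lung carcinoma cell line of the mouse. All 3 lines were labelled wild type and untreated and were grown in the same serum-containing DMEM, with 3 libraries a line. Each subclone is 1 clone, so its libraries say nothing of other clones. Whether the 3 libraries of each line stem from different culture dishes is not labelled. Every p-value below therefore sets a difference between lines only against the scatter of these libraries, which could be technical scatter.

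Proteins of the secretory pathway enter the endoplasmic reticulum through a translocation channel, fold there with the help of chaperones and disulfide isomerases, and are sent back to the cytosol for degradation when they fail to fold. Unfolded protein is sensed at the membrane of the organelle by the kinase and nuclease IRE1 (gene Ern1), the transcription factor ATF6 (Atf6) and the kinase PERK (Eif2ak3). IRE1 splices the mRNA of Xbp1, and the spliced XBP1 and the cleaved ATF6 then switch on chaperone and degradation genes, in good part through a promoter sequence called the endoplasmic reticulum stress response element. PERK slows translation and raises the factor ATF4. Gene-level values hold neither the splicing of Xbp1 nor the cleavage of ATF6.

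Promoters of 35 of the 40 genes were found in the RefSeq table (GRCm38.p6), as windows from 250 bases before to 50 after the annotated start. Stretches of 8 of them are shown because the response element was found more often in these genes than in all genes. The element, searched on both strands, is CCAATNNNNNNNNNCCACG (ERSE), and its other form is ATTGGNCCACG (ERSE-II). An ERSE was found in 9 of 35 genes (25.7%), against 37 of all 27025 genes with a window (0.137%), and an ERSE-II in 2 of 35 (5.71%), against 12 of 27025 (0.0444%). The capitals below mark the element, in reverse complement in Calr, Creld2 and the second site of Hsp90b1. The windows lie before the start site and read 5′ to 3′ on the strand of the gene. Creld2 and Canx were added after their values were seen, as carriers of an ERSE with other orders over the lines.

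Hspa5: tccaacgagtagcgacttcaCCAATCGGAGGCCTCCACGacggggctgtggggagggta
Herpud1: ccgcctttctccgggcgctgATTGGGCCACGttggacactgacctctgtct
Hsp90b1: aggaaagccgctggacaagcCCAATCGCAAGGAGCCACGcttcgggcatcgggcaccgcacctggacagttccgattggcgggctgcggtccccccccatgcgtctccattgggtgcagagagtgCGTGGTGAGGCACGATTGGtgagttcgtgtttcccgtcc
Dnajc3: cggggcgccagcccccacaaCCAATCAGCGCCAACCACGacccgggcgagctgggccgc
Pdia6: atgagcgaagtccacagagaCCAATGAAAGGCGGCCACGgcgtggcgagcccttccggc
Calr: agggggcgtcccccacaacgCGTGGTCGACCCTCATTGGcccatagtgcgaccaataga
Creld2: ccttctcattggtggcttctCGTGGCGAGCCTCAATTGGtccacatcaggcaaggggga
Canx: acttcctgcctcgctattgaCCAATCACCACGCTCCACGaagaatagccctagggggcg

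In GRCm38.p6 these stretches are chr2:34772005-34772063 (plus strand), chr8:94386357-94386407 (plus), chr10:86705513-86705676 (minus), chr14:118937807-118937865 (plus), chr12:17266471-17266529 (plus), chr8:84847055-84847113 (minus), chr15:88819500-88819558 (plus) and chr11:50325780-50325838 (minus). Hsp90b1 had 2 elements, the other genes shown 1 each. Derl3 and Syvn1 also held an ERSE and Dnajb11 an ERSE-II after its start site. The sequence TGACGTGG, known as the unfolded protein response element, occurred in Txndc5 alone among the 35 genes, and in 0.714% of all genes. The sequence TGATGCAAT, of the kind bound by ATF4, occurred in 0 of 35 genes and in 0.222% of all genes. None of the 13 sites in these genes overlapped another, although the reverse complement of TGACGTGG shares CCACG with the ERSE. A match is a description of letters and not a measured binding site.

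Most of these genes had more transcript in SCC2 than in LLC1 and less in SCC1 than in LLC1. The summed level of the 40 genes was 4634, 4665 and 4664 FPKM in SCC2, 3636, 3632 and 3611 FPKM in SCC1 and 4196, 4186 and 4159 FPKM in LLC1. The 3 lines did not overlap in this sum, and its share of all FPKM of a library was 1.21% ± 0.0013 in SCC2, 0.927% ± 0.0043 in SCC1 and 1.08% ± 0.004 in LLC1 (SD, n = 3 each). In bulk RNA, fewer cells with a transcript and less of it per cell cannot be told apart.

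A gene is called changed here at an adjusted p under 0.05 by limma on log2(FPKM + 1), a scale that understates the change of low genes. In SCC2 against LLC1, 28 of 38 genes were higher and 4 lower, where 34.7% of all 10519 tested genes were higher and 32.9% lower. The median log2 change of the 38 genes was 0.11, against 0.008 over all tested genes. In SCC1 against LLC1, 25 of 38 were lower and 8 higher, where 30.9% of all tested genes were lower and 39.2% higher, and the medians were -0.16 for the 38 genes and 0.033 over all tested genes. These comparisons share the LLC1 libraries, so their values are given side by side and not set against each other. In the direct comparison of SCC2 with SCC1, 28 of 38 were higher and 5 lower, against 37.0% and 39.4% of all tested genes, with a median log2 change of 0.26, against -0.003. Over the 38 genes the log2 change ran from -0.34 to 0.66 in SCC2 against LLC1 and from -0.58 to 0.22 in SCC1 against LLC1. In SCC2 against SCC1 it ran from -0.22 to 1.02. By size of change there, Herpud1 (1.02) ranked 340 and Txndc5 (0.99) ranked 358 of the 10519 tested genes.

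**Figure D1:**
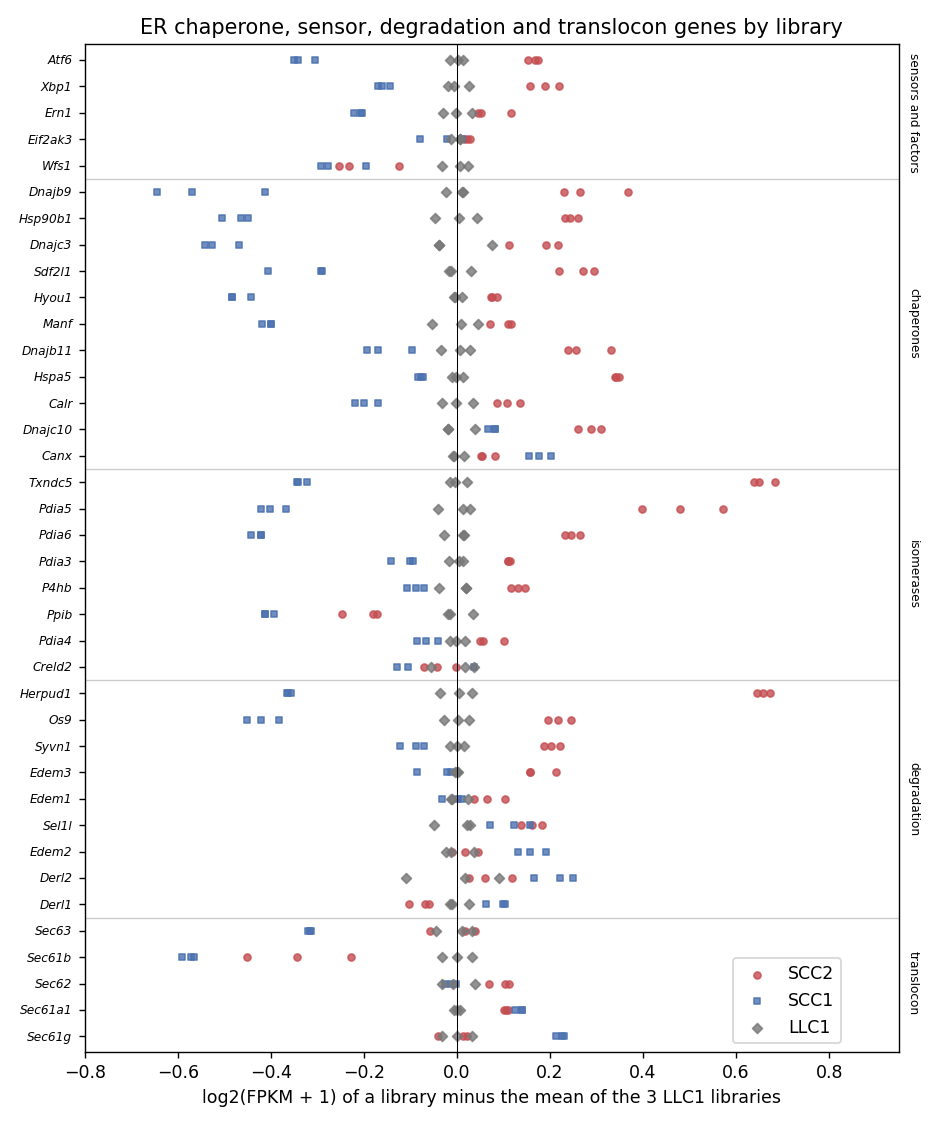
Level of each of 38 tested genes (rows, grouped by role) in each of 9 libraries, as log2(FPKM + 1) minus the mean of the 3 LLC1 libraries. Circles are SCC2, squares SCC1 and diamonds LLC1, and most chaperones and isomerases lie right of 0 in SCC2 and left of 0 in SCC1.

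**Figure D2:**
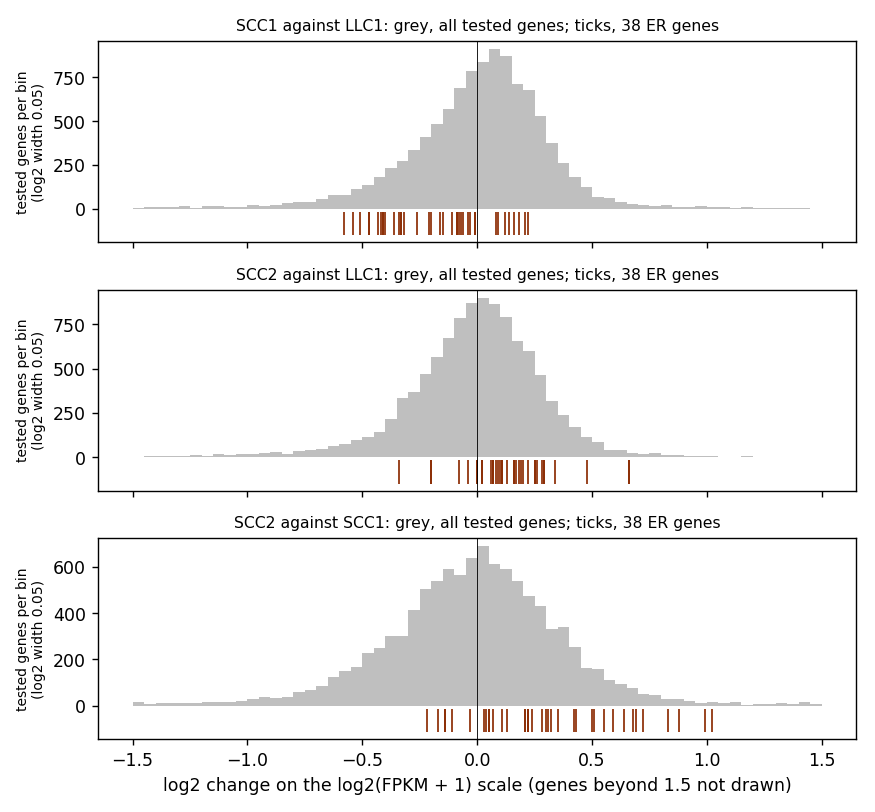
Log2 changes of all 10519 tested genes (grey histograms, genes per bin of log2 width 0.05, those beyond 1.5 not drawn) and of 38 endoplasmic reticulum genes (ticks under the histograms) in the 3 comparisons. The ticks have medians of -0.16, 0.11 and 0.26 from the top panel to the bottom one.

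Fragments worked back from the FPKM values came to 17094808 to 19398657 per library, a limit on counting error only. The tested genes here had from 126 fragments (Wfs1) to 27287 (P4hb) in a library, and these numbers are exact up to a factor that the libraries of a gene share. The keratins Krt8 and Krt18 of simple epithelia were present in every library (73.9 to 298 FPKM). Sftpc and Nkx2-1, from the list of lung epithelial markers, were listed at 0.067 FPKM or less. Of 8 macrophage and leukocyte markers 3 reached 1 FPKM, and these were Cd14, Cd68 and Mrc1, each highest in SCC1. The summed level of the list was 18.8 to 19.3 FPKM in SCC2, 28.1 to 32.1 in SCC1 and 15.9 to 17.3 in LLC1. Cd14 had 15.338 to 15.803 FPKM in SCC2, 17.784 to 19.464 in SCC1 and 11.435 to 12.878 in LLC1. Cd68 had 2.781 to 3.222 FPKM in SCC2, 8.343 to 10.397 in SCC1 and 3.837 to 4.505 in LLC1. Mrc1 had 0.214 to 0.272 FPKM in SCC2, 1.895 to 2.276 in SCC1 and 0.209 to 0.3 in LLC1. Csf1r stayed at 0.027 FPKM or less. Of 8 lymphocyte and plasma cell markers only Sdc1, which epithelial cells also express, reached 1 FPKM (summed level 83.7 to 84.6 FPKM in SCC2, 54.7 to 55.3 in SCC1 and 55.1 to 55.3 in LLC1), with Jchain at 0.028 FPKM or less. The 4 fibroblast markers, nearly all of it the collagen gene Col3a1, summed to 692 to 714 FPKM in SCC2, 258 to 268 in SCC1 and 571 to 597 in LLC1. Col3a1 and Lum had the order of the lines in most of the endoplasmic reticulum genes. Pdgfra and Dcn were instead highest in LLC1. Pdgfra had 2.981 to 3.129 FPKM in SCC2, 3.235 to 3.432 in SCC1 and 4.966 to 5.39 in LLC1. The 3 of 4 endothelial markers in the table summed to 0.0295 FPKM or less. The 4 of 7 lung epithelial markers in the table, nearly all of it the keratins, summed to 231 to 232 FPKM in SCC2, 445 to 455 in SCC1 and 332 to 341 in LLC1. The part of these markers in the results was not tested.

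Among the sensors and their factors, transcripts of Atf6, Ern1 and Xbp1 were higher in SCC2 and lower in SCC1 than in LLC1, whereas Eif2ak3 was called in none of the comparisons. Atf6 had 32.3, 31.9 and 32.4 FPKM in SCC2, 22.2, 22.4 and 23 in SCC1 and 28.3, 28.7 and 28.9 in LLC1. No library of one line overlapped another, and the log2 change was 0.16 in SCC2 against LLC1 (limma adjusted p = 6.24e-05) and -0.33 in SCC1 against LLC1 (adjusted p = 1.61e-07). Xbp1 had 73.9, 72.3 and 70.7 FPKM in SCC2, 56.2, 56.5 and 57.2 in SCC1 and 63, 62.5 and 64.5 in LLC1. Its 3 lines were apart as well, with log2 changes against LLC1 of 0.19 in SCC2 and -0.16 in SCC1. Ern1 had 70.6, 67.4 and 67.1 FPKM in SCC2, 56.2, 55.6 and 56.3 in SCC1 and 64.9, 63.6 and 66.5 in LLC1. The lowest SCC2 library lay just above the highest LLC1 library, and the rise of 0.07 in SCC2 (adjusted p = 0.0214) was lost under 5 of 19 alternatives: with quantile normalization (adjusted p = 0.18), with scaling by median of ratios (0.0585), and when LLC1 replicate 1 (0.052), LLC1 replicate 2 (0.0825) or SCC2 replicate 1 (0.0981) was left out. The log2 change of Ern1 in SCC1 was -0.21 (adjusted p = 1.16e-05).

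Eif2ak3 had 9.92, 9.87 and 9.96 FPKM in SCC2, 9.18, 9.6 and 9.84 in SCC1 and 9.8, 9.66 and 9.81 in LLC1. The SCC1 and LLC1 libraries overlapped, and the 95% intervals of the log2 change were -0.05 to 0.09 in SCC2 against LLC1, -0.10 to 0.04 in SCC1 against LLC1 and -0.02 to 0.12 in SCC2 against SCC1. Wfs1, a membrane protein of the organelle that restrains ATF6, had 2.02, 2.06 and 2.3 FPKM in SCC2, 2.14, 1.97 and 1.93 in SCC1 and 2.61, 2.52 and 2.66 in LLC1. It was lower in both subclones, with log2 changes of -0.20 in SCC2 and -0.26 in SCC1, at levels where adding 1 to the FPKM shrinks the change most. On recovered fragments its log2 changes were -0.29 and -0.36. The fall in SCC2 was lost with quantile normalization (adjusted p = 0.0735).

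All 11 chaperones and co-chaperones were higher in SCC2 than in LLC1 (median log2 change 0.25), while in SCC1 9 of 11 were lower and 2 higher (median -0.33). In SCC2 against SCC1, 10 of 11 were higher and 1, Canx, lower (median 0.51). Among all tested genes, 34.7% were higher in SCC2 against LLC1, 30.9% lower in SCC1 against LLC1 and 37.0% higher in SCC2 against SCC1. The most abundant of them in SCC2 was Hsp90b1, the HSP90 paralog of the lumen, with 488.9, 485.4 and 495.0 FPKM in SCC2, 299.0, 302.3 and 290.8 in SCC1 and 414.2, 425.3 and 399.9 in LLC1. SCC2 was highest and SCC1 lowest without overlap, and the log2 change was 0.25 in SCC2 against LLC1, -0.47 in SCC1 against LLC1 and 0.72 in SCC2 against SCC1 (limma adjusted p = 1.07e-10). Hspa5, which encodes BiP, the HSP70 chaperone that binds unfolded chains and keeps the sensors inactive, had 471.3, 471.1 and 473.7 FPKM in SCC2, 352.3, 353.4 and 350.9 in SCC1 and 371.3, 375.0 and 369.2 in LLC1. Its rise in SCC2 (0.34, adjusted p = 1.73e-09) stood beside a log2 change of -0.08 in SCC1, a fall that was lost with quantile normalization (adjusted p = 0.173). Hyou1, a large HSP70 relative that acts as a nucleotide exchange factor of BiP, had 61, 60.5 and 60.6 FPKM in SCC2, 40.8, 40.8 and 42 in SCC1 and 57.9, 57.2 and 57.2 in LLC1. Its log2 changes were 0.08 in SCC2 and -0.47 in SCC1, and the rise in SCC2 was lost with quantile normalization (adjusted p = 0.282).

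The J-domain proteins, which bring substrates to BiP and start its ATP cycle, differed in their order over the lines. Dnajb9, a J protein that also returns BiP to IRE1, had 27, 27.6 and 29.7 FPKM in SCC2, 16.9, 14.2 and 15 in SCC1 and 23, 22.4 and 23 in LLC1. The lines did not overlap, and SCC2 was above SCC1 by a log2 change of 0.83 (SE 0.053, limma adjusted p = 3.93e-08). Dnajc3 is a luminal co-chaperone that has been described as an inhibitor of PERK. It had 21.9, 21.4 and 20.2 FPKM in SCC2, 12.5, 13.2 and 12.7 in SCC1 and 18.2, 18.1 and 19.7 in LLC1. SCC2 was above LLC1 (0.17) and SCC1 below it (-0.51). Dnajc10, a J protein with disulfide reductase activity, had 61.7, 63.8 and 62.9 FPKM in SCC2, 54.4, 54.4 and 53.8 in SCC1 and 50.6, 50.7 and 52.8 in LLC1. It was above LLC1 in both subclones (0.29 in SCC2 and 0.08 in SCC1), and the small rise in SCC1 was lost with quantile normalization (adjusted p = 0.233) and with median-of-ratios scaling (adjusted p = 0.0662). Dnajb11, a J protein of the BiP complex, averaged 24.9 ± 0.887 FPKM in SCC2, 18.3 ± 0.677 in SCC1 and 20.4 ± 0.457 in LLC1 (SD, n = 3 each, as below).

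Other luminal helpers followed the order SCC2, LLC1, SCC1 from high to low. Sdf2l1, a partner of the J proteins, averaged 34.3 ± 0.925 FPKM in SCC2, 22.5 ± 1.08 in SCC1 and 28.4 ± 0.531 in LLC1. Manf, a small secreted and luminal protein that binds BiP, averaged 165 ± 2.8 FPKM in SCC2, 116 ± 0.911 in SCC1 and 154 ± 5.42 in LLC1. Calr, the soluble lectin calreticulin that holds glycoproteins until they fold, averaged 272 ± 4.8 FPKM in SCC2, 219.7 ± 3.8 in SCC1 and 252 ± 5.73 in LLC1. Canx, the membrane-bound lectin calnexin that works beside calreticulin, did not follow them: it had 176.5, 176.3 and 180.0 FPKM in SCC2, 192.3, 195.6 and 189.3 in SCC1 and 169.0, 171.8 and 169.1 in LLC1. Here SCC1 was highest, by 0.18 over LLC1 (adjusted p = 3.1e-06), and the log2 change of SCC2 was -0.11 against SCC1 and 0.06 against LLC1, a rise lost with quantile normalization (adjusted p = 0.345).

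**Figure D3:**
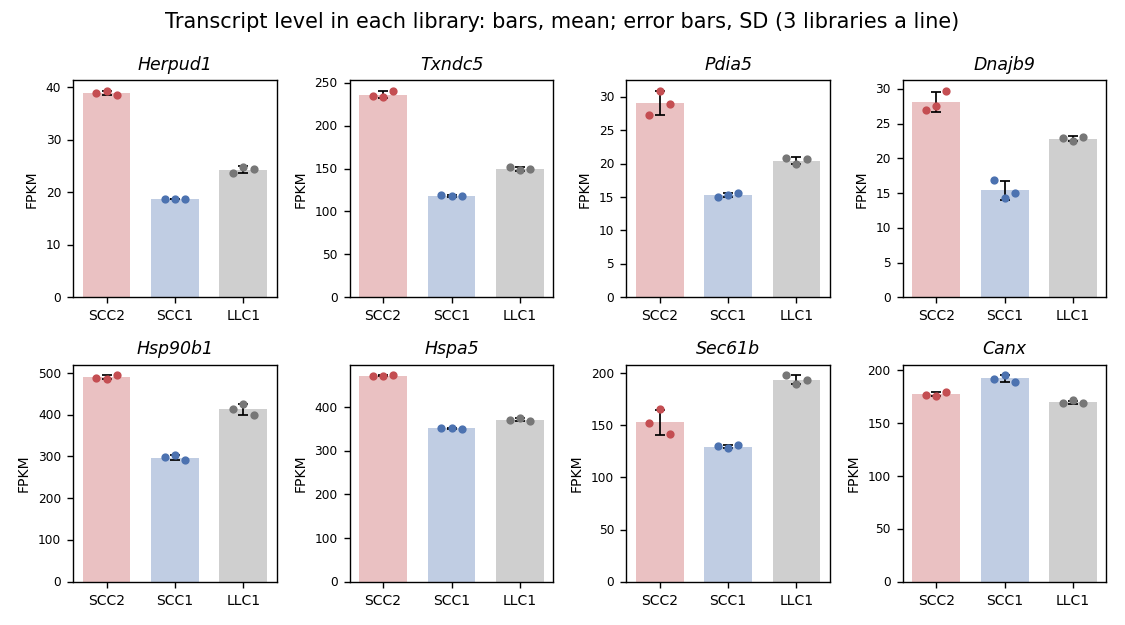
FPKM of 8 genes in the 3 libraries of SCC2, SCC1 and LLC1 (points), with the mean (bars, from 0) and SD (error bars). Herpud1, Txndc5, Pdia5, Dnajb9, Hsp90b1 and Hspa5 are highest in SCC2 and lowest in SCC1, Sec61b is highest in LLC1, and Canx is highest in SCC1.

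Of the 8 tested isomerases, 6 were higher and 1 lower in SCC2 than in LLC1 (median 0.12), and in SCC1 7 were lower and 0 higher (median -0.22). SCC2 was above SCC1 in 7 of 8, with 0 lower (median 0.22). The shares over all tested genes were 34.7% higher in SCC2 against LLC1, 30.9% lower in SCC1 against LLC1 and 37.0% higher in SCC2 against SCC1. Txndc5, a disulfide isomerase with several thioredoxin-like domains, had 235.1, 233.4 and 240.8 FPKM in SCC2, 119.5, 117.6 and 117.8 in SCC1 and 151.8, 148.0 and 149.1 in LLC1. Each SCC2 library was far above all LLC1 libraries and each SCC1 library below them, with log2 changes of 0.66 in SCC2 (adjusted p = 1.04e-10), -0.34 in SCC1 and 0.99 between SCC2 and SCC1. Pdia5, a disulfide isomerase known to activate ATF6, had 27.3, 30.9 and 28.9 FPKM in SCC2, 15, 15.3 and 15.6 in SCC1 and 20.9, 19.9 and 20.6 in LLC1. SCC2 lay above and SCC1 below LLC1 without overlap (0.48 and -0.40). Pdia6, a disulfide isomerase that acts on the sensors IRE1 and PERK, had 498.4, 505.2 and 494.0 FPKM in SCC2, 308.8, 313.8 and 313.8 in SCC1 and 424.6, 412.3 and 424.1 in LLC1. It was higher in SCC2 (0.25) and lower in SCC1 (-0.43, adjusted p = 1.23e-09).

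The isomerase of the calreticulin cycle and the most abundant one had small changes. Pdia3, which works with calreticulin and calnexin, averaged 326 ± 0.744 FPKM in SCC2, 279 ± 4.99 in SCC1 and 302 ± 3.27 in LLC1. P4hb, the classical protein disulfide isomerase and a subunit of the collagen prolyl hydroxylase, averaged 512 ± 5.14 FPKM in SCC2, 439 ± 5.78 in SCC1 and 467 ± 10.9 in LLC1. Pdia4 averaged 132 ± 2.59 FPKM in SCC2, 120.1 ± 1.87 in SCC1 and 126 ± 1.49 in LLC1, with changes of 0.07 in SCC2 and -0.06 in SCC1 that were small and called in both. Ppib, the proline isomerase cyclophilin B that helps collagen to fold, had 221.9, 234.1 and 232.4 FPKM in SCC2, 200.6, 197.9 and 197.8 in SCC1 and 260.8, 260.1 and 270.1 in LLC1. It was lower in both subclones, with log2 changes of -0.20 in SCC2 and -0.41 in SCC1, and no library of one line overlapped another. Creld2, a stress-induced luminal protein of this group, averaged 29.3 ± 0.727 FPKM in SCC2, 28.8 ± 1.87 in SCC1 and 30.1 ± 1.04 in LLC1 and was called in none of the comparisons, with a 95% interval of -0.07 to 0.12 for SCC2 against SCC1. Fkbp2, a proline isomerase of the lumen, was listed at 0 in 8 of 9 libraries and at 0.0649 FPKM in SCC2 replicate 2. A single value above 0 is set to 1 fragment by the recovery. Whether reads of Fkbp2 were lost in the authors' counting, for example to an overlapping gene, was not tested, so these zeros do not show that the gene is silent.

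Degradation genes were more mixed. In SCC2 against LLC1 6 of 9 tested were higher and 1 lower (median 0.16), in SCC1 against LLC1 3 were lower and 4 higher (median -0.01), and in SCC2 against SCC1 5 were higher and 3 lower (median 0.07). The split in SCC1 against LLC1 was near that of all tested genes, of which 30.9% were lower and 39.2% higher. In SCC2 against LLC1, 34.7% of all tested genes were higher and 32.9% lower, and in SCC2 against SCC1 37.0% and 39.4%. Herpud1, a membrane protein that brings the degradation complex together, had 38.9, 39.3 and 38.5 FPKM in SCC2, 18.7, 18.7 and 18.6 in SCC1 and 23.7, 24.9 and 24.3 in LLC1. It had the largest log2 change of the 38 genes between SCC2 and SCC1, 1.02 (SE 0.025, limma adjusted p = 1.26e-11), made up of 0.66 in SCC2 and -0.36 in SCC1 against LLC1. Os9, a lectin that hands misfolded glycoproteins to that complex, averaged 28.7 ± 0.508 FPKM in SCC2, 18.1 ± 0.458 in SCC1 and 24.5 ± 0.474 in LLC1. Syvn1, its ubiquitin ligase, averaged 31.4 ± 0.39 FPKM in SCC2, 25.3 ± 0.47 in SCC1 and 27.1 ± 0.31 in LLC1. Both were highest in SCC2 and lowest in SCC1, without overlap.

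Of the other tested degradation genes, Edem3 had that order too, without overlap, though it was not called in SCC1. Sel1l, the adaptor of Syvn1, had 19.4, 19.7 and 20 FPKM in SCC2, 18.5, 19.7 and 19.2 in SCC1 and 16.9, 17.8 and 17.9 in LLC1. It was above LLC1 in both subclones (0.16 in SCC2 and 0.12 in SCC1), and the SCC2 and SCC1 libraries overlapped. Edem2, a mannosidase that marks glycoproteins for disposal, had 28.3, 28.9 and 29.5 FPKM in SCC2, 32.7, 31.9 and 31.3 in SCC1 and 28, 28.3 and 29.3 in LLC1. Only SCC1 stood apart, 0.16 above LLC1 (adjusted p = 0.000258). Its relatives Edem1, at 25.2 ± 0.604 FPKM in SCC2, 23.9 ± 0.386 in SCC1 and 24 ± 0.351 in LLC1, and Edem3, at 15.7 ± 0.381 FPKM in SCC2, 13.4 ± 0.4 in SCC1 and 13.8 ± 0.0315 in LLC1, were higher in SCC2 against LLC1 (0.07 and 0.18) and were not called in SCC1.

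Derlins are membrane proteins of the export channel for misfolded proteins. Derl1 had 46, 47.1 and 47.4 FPKM in SCC2, 51.6, 53.2 and 53.1 in SCC1 and 50.4, 48.9 and 49.1 in LLC1. SCC1 was highest and SCC2 lowest without overlap, the reverse of the order in Herpud1, with -0.08 in SCC2 and 0.09 in SCC1 against LLC1, and the rise in SCC1 was lost with quantile normalization (adjusted p = 0.135). Derl2 had 12.5, 11.7 and 12 FPKM in SCC2, 13.5, 13 and 13.8 in SCC1 and 12.3, 10.6 and 11.6 in LLC1. It was higher in SCC1 only (0.21), and its difference between SCC2 and SCC1 (-0.14, adjusted p = 0.0174) was lost without SCC1 replicate 3 (adjusted p = 0.0612) or SCC2 replicate 2 (0.0649). Derl3 was listed at 0 in 7 libraries, at 0.0806 FPKM in SCC2 replicate 3 and at 0.0409 FPKM in LLC1 replicate 2, all under the 0.122 FPKM that 3 fragments would give.

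The SEC61 channel is built of an alpha, a beta and a gamma subunit, and their genes had different orders over the lines. Sec61a1 had 108.5, 108.2 and 107.9 FPKM in SCC2, 110.7, 109.7 and 110.8 in SCC1 and 100.9, 100.1 and 100.4 in LLC1, so both subclones were above LLC1 (0.11 in SCC2 and 0.14 in SCC1). Sec61b had 152.6, 165.3 and 141.4 FPKM in SCC2, 130.0, 128.3 and 130.7 in SCC1 and 198.2, 189.4 and 193.8 in LLC1. Both subclones were below LLC1 without overlap (-0.34 in SCC2 and -0.58 in SCC1, adjusted p = 2.35e-05 and 2.55e-07), and the SCC2 libraries were spread more widely than those of the other lines. Sec61g had 105.3, 104.7 and 100.8 FPKM in SCC2, 120.3, 121.4 and 121.8 in SCC1 and 106.0, 103.6 and 101.4 in LLC1. Only SCC1 was higher (0.22), and SCC2 overlapped LLC1. Of the accessory subunits that assist entry after translation, Sec62 averaged 29.8 ± 0.464 FPKM in SCC2, 27.6 ± 0.243 in SCC1 and 27.8 ± 0.713 in LLC1 and Sec63, a J protein of the membrane, 25.9 ± 0.945 FPKM in SCC2, 20.6 ± 0.0597 in SCC1 and 25.9 ± 0.749 in LLC1. Sec62 was higher in SCC2 (0.09), and Sec63 was lower in SCC1 (-0.32). Over all 5 translocon genes the median change was -0.00 in SCC2 against LLC1, -0.01 in SCC1 against LLC1 and 0.11 in SCC2 against SCC1.

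Genes with an ERSE or ERSE-II in the promoter window were set beside those without. In SCC2 against LLC1, 9 of 10 tested carriers among the listed genes were higher and 0 lower (median 0.22), against 15 of 23 higher and 3 lower for the listed genes with a window and no element (median 0.09). In SCC1 against LLC1, 8 of 10 carriers were lower and 1 higher (median -0.17), against 14 of 23 lower and 5 higher without the element (median -0.11). In SCC2 against SCC1, 8 of 10 carriers were higher and 1 lower (median 0.43), against 17 and 3 of 23 without the element (median 0.22). The carrier that was not called in SCC2 was Creld2, and the one that was higher in SCC1 was Canx. Another 14 tested genes outside the list held an element. Of these, 7 were higher and 3 lower in SCC2 against LLC1 (50% and 21.4%, median 0.11), beside 35.8% and 31.2% of 8475 other tested genes with a window and no element. In SCC1 against LLC1, 6 were higher and 5 lower (42.9% and 35.7%, median 0.05), beside 38.1% and 31.5% of the genes without it. In SCC2 against SCC1, 5 were higher and 3 lower (35.7% and 21.4%, median 0.03), beside 38.1% and 37.7%, so the share higher was near that of genes without an element. Xbp1, Dnajb9, Pdia5 and Sdf2l1 held none of the 4 sequences in their windows, and no window was matched for Atf6, Hyou1, Manf, Derl1 and Sec61a1.

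The subclones also differed by chromosome, and this touched several of the genes. The median log2 change over all tested genes of a chromosome ran from -0.26 (chromosome 15) to 0.35 (chromosome 13) in SCC2 against LLC1 and from -0.33 (chromosome 4) to 0.22 (chromosome 18) in SCC1 against LLC1. Of the 8 genes higher in SCC1, 1 was still called higher once the median of its chromosome was removed, and that was Sec61g (0.06, adjusted p = 0.0451). Of the 25 genes lower in SCC1, 23 were still called lower. In SCC2 against LLC1, 22 of 28 higher genes and 2 of 4 lower genes were still called in the same direction. In SCC2 against SCC1, 26 of 28 higher genes and 0 of 5 lower genes were. How many of all tested genes kept their call was not counted. Of all 10498 genes so treated, 3149 were higher and 3215 lower in SCC1 against LLC1, where 1 and 28 of the 38 were. In SCC2 against LLC1 the numbers were 3030 and 3117, beside 25 and 3 of the 38. In SCC2 against SCC1 they were 3540 and 3543, beside 31 and 0.

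Herpud1 kept a log2 change of 0.55 in SCC2 and -0.42 in SCC1 after removal of the chromosome median, and Hspa5 0.39 and -0.18. Txndc5 lies on chromosome 13, whose median was 0.35 in SCC2, and retained 0.30 of its 0.66. Atf6, on chromosome 1 with a median of 0.14 in SCC2, retained 0.03 (adjusted p = 0.335) there but -0.39 in SCC1 (adjusted p = 5.03e-08). Calr retained 0.00 in SCC2 (adjusted p = 0.95), Dnajb11 0.06 (adjusted p = 0.148) and Sdf2l1 0.05 (adjusted p = 0.263). Creld2 and Derl1 lie on chromosome 15, whose median was -0.26 in SCC2 and 0.16 in SCC1. Relative to it Creld2 was 0.22 in SCC2 and -0.23 in SCC1 (adjusted p = 0.000854 and 0.000599), the signs of most listed chaperones, and Derl1 was 0.18 and -0.07. Eif2ak3 was 0.12 in SCC2 and -0.16 in SCC1 relative to chromosome 6 (adjusted p = 0.00655 and 0.00102). Why the chromosome medians differ was not tested.

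**Figure D4:**
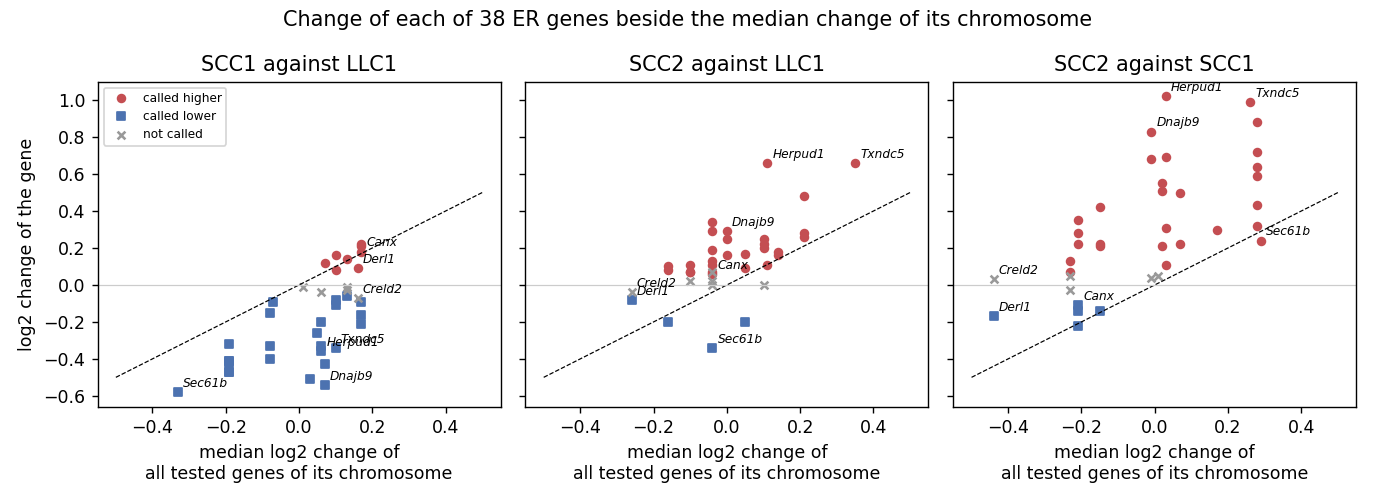
Log2 change of each of 38 genes (y axis) against the median log2 change of all tested genes of its chromosome (x axis) in the 3 comparisons, with circles for genes called higher, squares for lower and crosses for those not called. On the dashed line both are equal, and the 8 genes higher in SCC1 lie near it. Once the chromosome median was removed, 1 of the 8, Sec61g, was still called higher in SCC1 against LLC1, and Derl1 was called lower (-0.07). Herpud1 and Dnajb9 lie far above the line in SCC2 against SCC1.

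Neighbouring pathways of the organelle were described with other lists of genes, to be read against the 34.7% higher and 32.9% lower among all tested genes in SCC2 against LLC1 and the 39.2% higher and 30.9% lower in SCC1 against LLC1. Of 14 genes of the PERK and ATF4 branch, 13 were higher and 1 lower in SCC2 against LLC1 (median 0.57), and 8 were lower and 3 higher in SCC1 against LLC1 (median -0.10). Atf5, a stress-induced transcription factor, averaged 114 ± 2.77 FPKM in SCC2, 27.6 ± 0.122 in SCC1 and 43.5 ± 1.12 in LLC1, and Trib3, an inhibitor of the kinase AKT induced by ATF4, 49.8 ± 1.4 FPKM in SCC2, 18.8 ± 0.955 in SCC1 and 23 ± 0.862 in LLC1. Of 6 tested membrane-bound factors and their proteases, 4 were higher and 2 lower in SCC2 (median 0.17), and 4 were lower and 1 higher in SCC1 (median -0.24). Mbtps1, the protease that makes the initial cut of ATF6, averaged 82.1 ± 1.48 FPKM in SCC2, 56.7 ± 1.17 in SCC1 and 71.4 ± 0.423 in LLC1. Creb3l2, of the same list, was lower in both subclones. It averaged 34.3 ± 1.03 FPKM in SCC2, 33.7 ± 1.04 in SCC1 and 39.8 ± 1.72 in LLC1.

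The 39 tested folding factors outside the main list were lower in 25 and higher in 8 cases in SCC1 against LLC1 (median -0.19), but lower in 15 and higher in 12 in SCC2 against LLC1 (median -0.01). Serpinh1, a chaperone of collagen, averaged 408 ± 1.83 FPKM in SCC2, 241 ± 0.79 in SCC1 and 347 ± 6.8 in LLC1, and Fkbp10, a proline isomerase that also serves collagen, 64.6 ± 2.06 FPKM in SCC2, 39.9 ± 0.471 in SCC1 and 62.3 ± 0.683 in LLC1. Ero1a, the oxidase that recharges disulfide isomerases, had the opposite order, with 130 ± 0.614 FPKM in SCC2, 211 ± 3.19 in SCC1 and 149 ± 0.397 in LLC1. Rcn3, of the same list, was lower in both subclones and lowest in SCC2. It averaged 0.232 ± 0.0169 FPKM in SCC2, 2.17 ± 0.403 in SCC1 and 4.2 ± 0.243 in LLC1. In N-linked glycosylation and glycan trimming, 15 of 23 genes were lower and 4 higher in SCC1 (median -0.16), and 7 were higher and 7 lower in SCC2 (median -0.02). Uggt1, which puts a glucose back on misfolded glycoproteins for another round of folding, averaged 54.9 ± 0.472 FPKM in SCC2, 32.2 ± 0.515 in SCC1 and 44.1 ± 0.435 in LLC1, and Ddost, a subunit of the oligosaccharyltransferase, 174 ± 3.26 FPKM in SCC2, 91.7 ± 2.02 in SCC1 and 161 ± 2.62 in LLC1.

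Of 26 other degradation genes, 12 were higher and 9 lower in SCC2 (median 0.05), and 10 were higher and 9 lower in SCC1 (median -0.01), shares near the 39.2% and 30.9% of all tested genes. Aup1, a membrane protein that recruits a ubiquitin-conjugating enzyme, averaged 76.9 ± 0.868 FPKM in SCC2, 118 ± 2.04 in SCC1 and 96.7 ± 2.59 in LLC1, the reverse of the order in Herpud1. The 21 other genes of targeting, translocation and signal cleavage were higher in 12 and lower in 3 cases in SCC2 (median 0.12), and higher in 9 and lower in 4 in SCC1 (median -0.00). The translocon-associated subunit Ssr1 averaged 48.3 ± 0.41 FPKM in SCC2, 33.8 ± 0.595 in SCC1 and 34.2 ± 0.998 in LLC1. Ssr2 averaged 173 ± 7.37 FPKM in SCC2, 118 ± 2.52 in SCC1 and 143 ± 1.17 in LLC1. Srpr, of the same list, was lower in both subclones. It averaged 48 ± 0.372 FPKM in SCC2, 38.7 ± 0.741 in SCC1 and 53.7 ± 0.264 in LLC1.

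**Figure D5:**
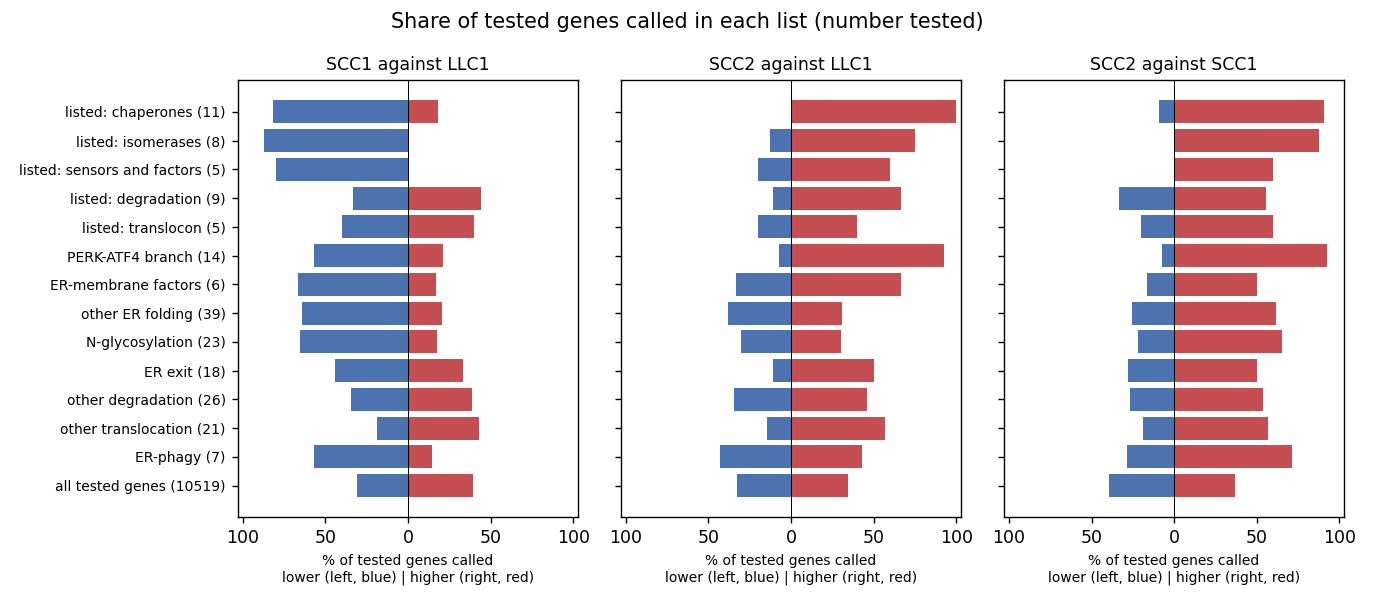
Percent of the tested genes of each list called higher (right, red) or lower (left, blue) in the 3 comparisons, with the number tested in brackets and all 10519 tested genes in the bottom row. The listed chaperones reach 11 of 11 higher in SCC2 against LLC1, and the listed translocon and degradation genes are split between both sides in SCC1 against LLC1.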

How the data were processed

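RNA was sequenced from SCC2, SCC1 and LLC1 cells, and groups came from the sample titles. The deposited values were FPKM per gene symbol, made by the authors with cufflinks after Trimmomatic and hisat2, per the series' design text. Information on tool versions and annotation was not given in the sources used here. The genome build is GRCm38 (mm10), per the submitters' processing notes. The labels and the design text name different library kits and RNA kits, SMARTER with RNeasy and TruSeq stranded with mirVana. Of these names only TruSeq stranded speaks of strand, so whether the libraries were stranded remains unsettled. Reads of overlapping genes or near-identical copies may be shared, and copies were not examined here.

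Genes reaching 1 FPKM in 3 or more of the 9 libraries (10519 of 15768) were tested with limma 3.58.1 in R 4.3.3 on log2(FPKM + 1) with a pseudocount of 1, all 9 libraries in 1 fit, trend and robust options, two-sided. Benjamini-Hochberg adjustment ran over all tested genes, with a threshold of 0.05. The fit was tested on simulated data. The 19 alternatives were a pseudocount of 0.1, no filter or one of 5 FPKM, no trend or robust option, other scalings, chromosome medians removed, 2 lines only, limma-voom on recovered fragments, a replicate block, and each library left out. Whole fragments came back from the FPKM steps for all 12270 genes above 0 in all libraries, within 0.001 fragments, up to a factor that the libraries of a gene share, and cover counting error only. Chromosomes and promoters came from RefSeq GRCm38.p6 by symbol, read with Python 3.11.15 and pandas 2.3.3. Genes were listed by series rule; those given per library were the called genes with the 6 largest and 6 smallest log2 changes of each comparison, besides Xbp1, Atf6, Ern1 and Eif2ak3, and of other lists up to 4 genes with the smallest adjusted p could be named. Members and lists were chosen with earlier results of these data known. Protein sequences were not used here.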

Additional observations from a re-analysis of the deposited data

Results flagged for a closer look

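Some genes were called in opposite directions against LLC1 in the 2 subclones. For genes picked in this way, a called difference between SCC2 and SCC1 follows from the choice. Its limma adjusted p (1.4e-12 to 7.21e-05) is therefore no separate support. How many of all tested genes had such opposite calls was not counted. Whether such calls were more frequent in the listed genes than in all tested genes therefore cannot be told here. Both comparisons with LLC1 use the same LLC1 libraries. The log2 change of SCC2 against SCC1 was positive for Herpud1 (1.02), Txndc5 (0.99), Pdia5 (0.88), Dnajb9 (0.83), Hsp90b1 (0.72), Dnajc3 (0.69), Pdia6 (0.68), Os9 (0.64), Sdf2l1 (0.59), Hyou1 (0.55), Manf (0.51). It was also positive for Atf6 (0.50), Dnajb11 (0.43), Hspa5 (0.42), Xbp1 (0.35), Calr (0.31), Syvn1 (0.30), Ern1 (0.28), P4hb (0.22), Pdia3 (0.22) and Pdia4 (0.13). It was negative for Derl1 (-0.17), which was lower in SCC2 and higher in SCC1. Derl1 turned positive (0.276) once the median of its chromosome was removed. That removal also took the call in SCC2 against LLC1 from Atf6, Calr, Dnajb11 and Sdf2l1, and the call in SCC1 against LLC1 from Dnajb11 and Syvn1. Of the genes given per library, quantile normalization took the call in SCC1 from Hspa5 and Derl1, and the call in SCC2 from Ern1 and Hyou1. These genes were then not called in opposite directions.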

How the results depend on the processing

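Over 19 alternatives the counts of called genes stayed within 1.5 times of those reported, except with chromosome medians removed, where 1 gene was higher in SCC1 against LLC1 and 0 lower in SCC2 against SCC1. The median log2 change of the tested genes kept its sign under all 19. In SCC1 against LLC1 it was -0.133 with no filter on low values, -0.188 after quantile normalization, -0.182 after scaling by median of ratios and -0.220 with chromosome medians removed, and -0.169 to -0.143 when 1 replicate was left out. In SCC2 against LLC1 it was 0.073 after quantile normalization, 0.095 after scaling by median of ratios, 0.139 with chromosome medians removed, and 0.108 to 0.122 when 1 replicate was left out. In SCC2 against SCC1 it was 0.230 with no filter, 0.282 with a filter of 5 FPKM, 0.335 with chromosome medians removed, and 0.248 to 0.289 when 1 replicate was left out. Of the 24 genes given per library, the only ones with which all 19 alternatives were run singly, some turned round, each with chromosome medians removed: Derl1 (-0.075) and Dnajc10 (-0.022) in SCC1 against LLC1, Derl1 (0.180) in SCC2 against LLC1, and Canx (0.099), Derl1 (0.276), Derl2 (0.070), Edem2 (0.012), Sec61a1 (0.205) and Sec61b (-0.059) in SCC2 against SCC1. Creld2, outside those 24, turned to 0.22 in SCC2 against LLC1 in the same way. The cause was not tested. Over these 24 genes, 22 calls were lost and 3 gained, with the same direction, and Wfs1 gave no value with the filter of 5 FPKM. Replicate numbers did not pair the libraries: same-numbered libraries had correlations of deviations of -0.07 to 0.09 in 9 pairs. With a replicate block, 27 genes were higher and 4 lower in SCC2 against LLC1, 8 and 25 in SCC1 against LLC1, and 28 and 5 in SCC2 against SCC1, with medians of 0.110, -0.156 and 0.258. Of all 10519 tested genes, 3626 were then higher and 3420 lower in SCC2 against LLC1. The numbers were 4086 and 3220 in SCC1 against LLC1, and 3873 and 4089 in SCC2 against SCC1.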

Other observations

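Genes of exit from the endoplasmic reticulum were lower in 8 and higher in 6 of 18 cases in SCC1 against LLC1 (median -0.06), and higher in 9 and lower in 2 in SCC2 against LLC1 (median 0.07). Beside these stand 30.9% lower and 39.2% higher among all tested genes in SCC1, and 34.7% higher and 32.9% lower in SCC2. Kdelr3, a receptor that returns escaped luminal chaperones from the Golgi, averaged 19.8 ± 0.927 FPKM in SCC2, 5.74 ± 0.461 in SCC1 and 16.1 ± 0.588 in LLC1 (SD, n = 3 each). Its log2 change between SCC2 and SCC1 was 1.63, larger than that of any of the 38 tested chaperone, sensor, degradation and translocon genes. Lman2, a lectin of cargo transport, averaged 105 ± 1.35 FPKM in SCC2, 63.8 ± 0.218 in SCC1 and 69.7 ± 0.161 in LLC1, and Sar1a, a GTPase that starts the coat of transport vesicles, 57.9 ± 0.922 FPKM in SCC2, 36.9 ± 1.45 in SCC1 and 50.4 ± 0.466 in LLC1.

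Of 7 tested genes of receptors for the autophagy of this organelle, 3 were higher and 3 lower in SCC2 against LLC1 (median 0.07), and 1 was higher and 4 lower in SCC1 against LLC1 (median -0.14). Among all tested genes, 34.7% were higher and 32.9% lower in SCC2, and 39.2% higher and 30.9% lower in SCC1. Sec62 is in both this list and the main one. Calcoco1 averaged 13.1 ± 0.239 FPKM in SCC2, 24.2 ± 0.0858 in SCC1 and 24.6 ± 0.175 in LLC1, so SCC2 alone was low. Ccpg1, a receptor induced by stress of the organelle, averaged 8.38 ± 0.255 FPKM in SCC2, 6.82 ± 0.217 in SCC1 and 11.1 ± 0.0902 in LLC1 and was lower in both subclones. Atl3 averaged 31.3 ± 0.981 FPKM in SCC2, 21.6 ± 0.211 in SCC1 and 23.9 ± 0.585 in LLC1, the order of most chaperones.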
